A study of Drosophila melanogaster with 24 samples.

Results

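CLK and CYC binding sites in fly heads were compared through 4 lists of ChIP-seq peaks, 2 for each factor, taken with the same replicate number set against each other. The lists came from pull-downs with a V5 antibody from Drosophila melanogaster heads: 2 from flies of the strain labelled Clk, which gave 13729 and 4609 peaks in replicates 1 and 2, and 2 from the strain labelled cyc, which gave 12086 and 4848 peaks. These 35272 peaks are part of 58157 in the 12 lists of the series, which has 24 libraries in all. Head lists from w- flies, which carry no V5 tag (mock), held 12082 and 1726 peaks and served as the background of the antibody. The flies of all these groups were 5 to 10 days old, lived at 25 °C under a cycle of 12 h of light followed by 12 h of darkness, and were collected at ZT13, 1 h after lights-off. Formaldehyde at 1% fixed the chromatin for 10 min, before 6 rounds of sonication. Body lists of the same tagged strains, 4 in number with 8829 peaks in all, are also used below. Body chromatin had 4 rounds of sonication, with the same age, temperature, light cycle, time and fixation. Each head list covers the whole head, so the cells that carry a site are not known. How the tagged proteins are expressed is not stated in the labels, and the CLK and CYC flies are separate strains.

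CLOCK (CLK) and CYCLE (CYC) are transcription factors with a basic helix-loop-helix domain and PAS domains. They form a heterodimer that binds E-box elements and activates clock genes such as period, timeless, vrille and Pdp1. PERIOD and TIMELESS in turn inhibit the pair, which closes the main feedback loop of the fly clock. The comparison asks how far the partners were found at the same sites, in the same order of strength and at the same position. No gene names are given to the regions, because no annotation of dm3, the build of the lists, was used here. Coordinates are those of the deposited lists.

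The number of peaks did not separate the factors. Head CLK lists averaged 9169 ± 6449 peaks and head CYC lists 8467 ± 5118 (SD, n = 2 each), against 6904 ± 7323 in the head mock lists (n = 2). The CLK-minus-CYC difference was 0.06 on the log2(peaks + 1) scale (exact two-sided permutation test, p = 1.00), and 2 lists against 2 allow no p below 0.3333. Its sign turned when single libraries were left out, to -0.73 without CLK replicate 1 and -0.60 without CYC replicate 2. The lists hold no read counts, so depth is unknown and a missing peak means only that none was called. The p-values here rest on the spread between the 2 lists of each factor, described by the submitters as biologically independent. Those of the limma fits further below also draw on the spread at the other regions tested.

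Overlapping peaks of the 4 head lists were merged into 18974 regions. A region had a peak in all 4 lists in 1326 cases, which is 6.99% of the regions. Both CLK lists and neither CYC list had a peak in 987 regions, whereas both CYC lists and neither CLK list had one in 289. Regions with a peak in replicate 1 of both factors and in neither replicate 2 were more numerous than any of these, at 4061, while replicate 2 of both factors alone shared 105. Mock peaks were spread unevenly over these classes. They lay in 58.8% of the regions with all 4 lists, 20.8% of the regions with only CLK, 52.2% of the regions with only CYC and 79.6% of the 4061 regions with only replicate 1 of both factors. Of those 4061, 3203 overlapped a peak of mock replicate 1. A peak of either mock list lay in 46.6% of all 18974 regions. The part of the mock background in the peaks shared by replicate 1 of both factors was not tested. Counting only regions without any head mock peak left 546 with all 4 lists, 782 with only CLK, 138 with only CYC and 830 with only replicate 1 of both factors. These classes depend on each library, since fewer lists set fewer conditions. Regions in all remaining lists numbered 2011 without CLK replicate 2 and 2485 without CYC replicate 2. Those with only CLK numbered 1561 without CLK replicate 1, 5171 without CLK replicate 2 and 2155 without CYC replicate 1. Those with only CYC numbered 975 without CLK replicate 1, 2027 without CYC replicate 1 and 3676 without CYC replicate 2.

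Among the strongest peaks a CLK list shared more with the other CLK list than with its partner's. The authors deposited 2 values per peak, and the first of them set the rank of a peak in its own list, with 1 the strongest. Lists were then shortened to equal length. At the 100 best peaks, 82% of CLK replicate 1 (95% Clopper-Pearson interval 73.1 to 89.0) overlapped the 100 best of CLK replicate 2, while 64% (53.8 to 73.4) overlapped those of CYC replicate 1. For CYC replicate 1 the shares were 64% with CLK replicate 1 and 76% (66.4 to 84.0) with CYC replicate 2. In replicate 2, CLK and CYC each shared 64% of their 100 best peaks with the other. These intervals overlap, cover counting error only, and treat peaks of 1 list as if they were independent. At the 500 best peaks CLK replicate 1 shared 78% with CLK replicate 2 (74.1 to 81.6) and 61.2% with CYC replicate 1 (56.8 to 65.5). CYC replicate 1 no longer stood closer to its own factor there, with 60.8% shared with CLK replicate 1 (56.4 to 65.1) and 60.4% with CYC replicate 2 (56.0 to 64.7).

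Further down the lists this order changed again. At 4609 peaks per list, the length of the shortest, 56.5% of CLK replicate 1 overlapped CYC replicate 1 (55.1 to 57.9) and 56.6% overlapped CLK replicate 2 (55.1 to 58.0). CYC replicate 1 shared 57.2% with CLK replicate 1 (55.8 to 58.7) and 30.2% with its own replicate 2 (28.9 to 31.5). The replicate 2 lists shared 36.9% of CLK and 37.2% of CYC with each other. Among weaker peaks CYC replicate 1 was thus closer to CLK replicate 1 than to CYC replicate 2. The list of mock replicate 1 was not shortened, so its shares do not compare with the partner shares at equal length. Its 12082 peaks covered 56.5% of the 4609 best of CLK replicate 1 and 72.6% of those of CYC replicate 1. In replicate 2 they covered 39.7% of CLK and 39.6% of CYC. Both lists of replicate 1 thus had a larger share of peaks in common with mock replicate 1 than the lists of replicate 2 had.

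**Figure D1:**
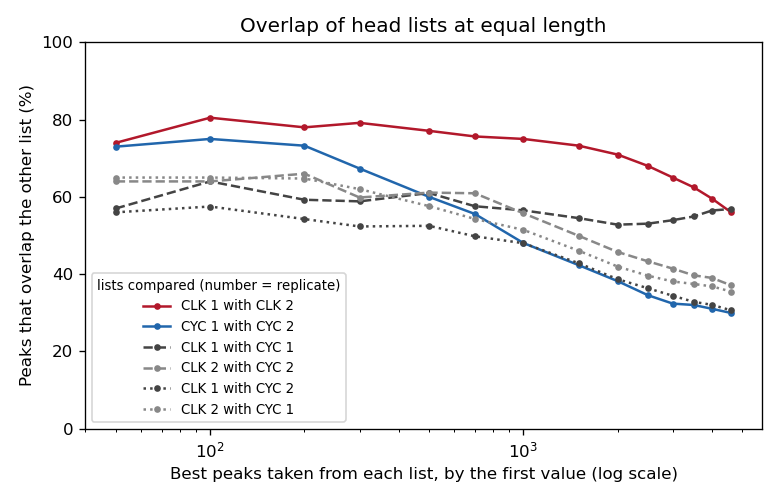
Share of peaks (y axis, %) of one head list that overlap another when both are cut to the same number of best peaks (x axis, log scale); each line is 1 of the 6 pairs of lists, averaged over both directions, with 2 lists per factor. At 100 peaks the pairs of 1 factor stand at 80.5% for CLK and 75.0% for CYC, above the 4 pairs of different factors at 57.5% to 65.0%; at 4609 peaks CLK 1 with CYC 1 reaches 56.9% and CYC 1 with CYC 2 29.9%.

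Over whole lists, 57.0% of the peaks of CLK replicate 1 and 37.5% of those of CLK replicate 2 overlapped a CYC peak of the same replicate number, and 66.4% and 36.0% of the CYC peaks overlapped a CLK peak. Without the peaks that overlap a mock peak, the shares were 33.1% and 31.5% in CLK and 45.1% and 29.9% in CYC. Whether a peak had a partner depended on its rank. Of the 100 best peaks, 99.0% of CLK replicate 1, 98.0% of CLK replicate 2, 99.0% of CYC replicate 1 and 100% of CYC replicate 2 overlapped a peak of any rank of the other factor with the same replicate number. At ranks 1001 to 2000 the shares were 73.3% and 38.8% in CLK and 91.2% and 38.5% in CYC. At ranks 2001 to 4609 they were 65.5% and 25.3% in CLK and 84.2% and 18.6% in CYC. Replicate 2 shares were lower, and the partner lists searched there were shorter. Many of these peaks also overlapped a peak of either mock list. This held for 79% and 75% of the 100 best CLK peaks in replicates 1 and 2. For the 100 best CYC peaks the mock shares were 82% and 71%. At ranks 1001 to 2000, mock peaks overlapped 56.3% of CLK replicate 1 and 75.6% of CYC replicate 1. In replicate 2 they overlapped 43.7% of CLK and 50.5% of CYC at those ranks. How far the mock background enters the partner shares by rank was not tested. Peaks without a partner lay at a median of 62.9% and 59.9% of the way down the CLK lists, with 0 the best, and 72.7% and 61.7% down the CYC lists. Peaks with a partner lay at 40.5% and 30.0% in CLK and at 37.4% and 22.0% in CYC.

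Some peaks without an overlap had a partner peak close by. In replicate 1, 15.0% of 5907 CLK peaks without an overlap had a CYC midpoint within 500 bp, and 35.0% had one within 1000 bp. The reverse shares were 21.0% and 40.0% of 4055 CYC peaks. In replicate 2 the shares were 8.16% and 23.1% of 2881 CLK peaks, and 6.77% and 19.2% of 3103 CYC peaks. The median distance to the nearest partner midpoint was 1846 and 3501 bp for CLK peaks and 1541 and 4753 bp for CYC peaks in replicates 1 and 2.

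The chromosome make-up of the lists differed on X and on chromosome 4. X held 18.0% and 16.0% of the CLK peaks and 12.9% and 12.7% of the CYC peaks, against 16.7% and 9.10% of the mock peaks. Chromosome 4, a small and largely heterochromatic chromosome, held 3.68% and 1.39% of the CLK peaks and 8.18% and 3.77% of the CYC peaks, against 7.57% and 6.20% of the mock peaks. Both CLK lists were above both CYC lists on X and below them on chromosome 4, although CLK replicate 1 and CYC replicate 2 lay close together on chromosome 4. Among regions without a head mock peak, X held 159 of the 782 with only CLK (20.3%, 17.6 to 23.3) and 14 of the 138 with only CYC (10.1%, 5.66 to 16.4). Chromosome 4 held 0 of those 782 (interval up to 0.471%) and 6 of those 138 (4.35%, 1.61 to 9.22).

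In each of the 4 lists the same 8 regions held the places 1 to 8. Ranks were taken anew among the 1326 regions with a peak in all 4 lists, so that every list has the same length. The region 3L 7826767 to 7827089 ranked 3 and 1 in CLK and 1 and 3 in CYC, with first values of 1572 and 639 in the CLK lists, against 952 and 531 in the CYC lists. Its neighbour 3L 7828200 to 7828522 ranked 4 and 2 in CLK and 3 and 1 in CYC. On 2L, the region 5303180 to 5303502 ranked 2 and 4 in CLK and 2 and 4 in CYC. Ranks of the factors overlapped at each of these 3 regions.

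The next places were also shared. The region 2L 3507238 to 3507560 ranked 5 and 3 in CLK and 4 and 2 in CYC, and X 2578927 to 2579249 ranked 7 and 5 in CLK and 6 and 5 in CYC. The region 2L 5305472 to 5305794 was first in CLK replicate 1 and sixth in CLK replicate 2, and ranked 5 and 6 in CYC. The last 2 of the 8 best, 2L 5301020 to 5301636 and 2L 5303801 to 5304128, ranked 6 to 7 and 8 in every list. All 8 have a peak in mock replicate 1, none in mock replicate 2, and a peak in all 4 body lists. Adjusted p-values for a CLK-CYC difference at them ran from 0.362 to 1.00 (limma, Benjamini-Hochberg). The 8 were chosen for ranking well in all lists, and the wider top was less alike than these 8. Among the 332 regions with the best mean rank, ranks of the factors did not overlap in 64.2%. The share was similar in the next 331 regions (60.7%) and the 331 after those (62.8%). It was lower, at 48.5%, only in the 332 with the lowest mean rank. The median difference in log2 rank between the factors in the best 332 was 0.66 in replicate 1 and 0.80 in replicate 2, against 0.43 between the CLK replicates and 0.44 between the CYC replicates. In the lowest 332 it was 0.23 and 0.20 between the factors, against 0.13 in CLK and 0.19 in CYC.

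Over all shared regions, the top included, the order differed between the factors by more than between replicates. Across the 1326 regions the ranks of CLK replicate 1 and CYC replicate 1 had a Spearman rho of 0.72, and those of CLK replicate 2 and CYC replicate 2 had 0.70. The pairs of 1 factor were closer, at 0.90 for CLK and 0.82 for CYC, and pairs of different factor and number stood at 0.60 and 0.71. These values describe regions that share a library on each axis, and regions are not independent. In the 546 regions without a head mock peak the values were 0.67 and 0.65 between the factors in replicates 1 and 2, 0.89 within CLK and 0.84 within CYC. The CLK-minus-CYC difference in -log2 rank in replicate 1 tracked that in replicate 2, lists with no library in common, with rho 0.75 over 1326 regions and the same sign in 77.8% of them. With the replicate numbers crossed, rho was 0.46 and the share 64.7%.

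The rank order by the second deposited value did not show this. Its rho was 0.69 and 0.42 between the factors in replicates 1 and 2, 0.58 within CLK and 0.40 within CYC. CLK replicate 1 was then nearer to CYC replicate 1 than to CLK replicate 2. Within single lists the first and the second value were only loosely related, at a rho over all peaks of 0.31 (CLK replicate 1), 0.55 (CLK replicate 2), 0.19 (CYC replicate 1) and 0.28 (CYC replicate 2).

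Both CLK lists ranked 385 regions above both CYC lists, which is 29.0% of the 1326 compared, and both CYC lists ranked 398 (30.0%) above both CLK lists. Together the ranks of the factors did not overlap in 59.0% of the regions, and in 59.9% of those without a head mock peak (of 546, 158 or 28.9% with CLK higher and 169 or 31.0% with CYC higher). The median over regions of the fold difference in rank was 1.64 among the 385 and 1.61 among the 398, and 18 and 12 regions differed 4-fold or more. By the second value, 177 of the 385 kept both CLK lists higher and 12 had both CYC lists higher. Of the 398, 168 had both CYC lists higher by the second value and 7 had both CLK lists higher. The ranks by the second value overlapped in 196 of the 385 and in 223 of the 398. Where the first value separated the factors, the second value thus more often left their ranks overlapping than did the same. It seldom separated them the other way. With a single list of 1 factor the condition is easier to meet. Without CLK replicate 2, CLK was then higher in 696 and CYC in 786 of 2011 regions. Without CYC replicate 1 the counts were 630 and 662 of 1555, and without CYC replicate 2 they were 995 and 963 of 2485.

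Few single regions passed a test that took the 2 lists of each factor as unpaired. limma on -log2(rank / 1326) called 1 region at an adjusted p below 0.05, or 0.0754% of those tested, whereas 383 (28.9%) had an unadjusted p below 0.05. The region was 2R 4491744 to 4492090, which ranked 71 and 95 in CLK and 1027.5 and 1001 in CYC. Its first values were 148 and 51.8 in CLK and 3.74 and 3.39 in CYC, so the CLK ranks stood 12.3-fold higher (log2 difference 3.63 ± 0.33, SE; limma adjusted p = 0.0474). It has a peak in mock replicate 1 and none in a body list. The adjusted p was 0.365 without CLK replicate 1, 0.0387 without CLK replicate 2, 0.100 without CYC replicate 1 and 0.0489 without CYC replicate 2. Ranking by the second value (0.829) or lists of equal length (0.0524) also ended the call. The log2 difference was no smaller than 3.37 in any of these fits, at 3.43 without CLK replicate 1, 3.76 without CYC replicate 1, 4.78 by the second value and 3.37 at equal length. The number of calls was 0 without CLK replicate 1 or without CYC replicate 1, 11 without CLK replicate 2 and 62 without CYC replicate 2. The fits without 1 library covered from 1346 to 2485 regions, against 1326 in the main fit. With all peaks that overlap a mock peak removed, limma called 95 of 552 regions, 45 with CLK higher and 50 with CYC higher. The region 2R 4491744 to 4492090 is not among those 552, nor among the 357 compared when both values had to be 4 or more. With the replicate number as a block, limma called 341 of the 1326 regions, 168 with CLK higher and 173 with CYC higher. The labels do not say that a number marks a shared batch.

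**Figure D2:**
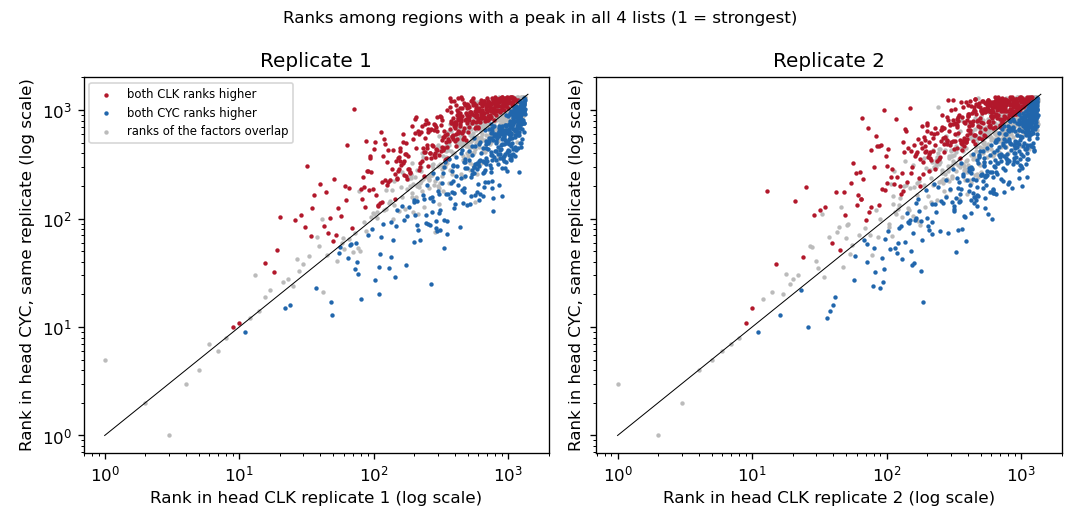
Ranks in head CLK (x axis) and head CYC (y axis) of the 1326 regions that all 4 lists share, on log scales, for replicate 1 (left) and replicate 2 (right); each point is a region and the line marks equal ranks. The 8 best regions lie near the line, and the 385 regions with both CLK ranks higher and the 398 with both CYC ranks higher lie on opposite sides of it in both panels, as their choice requires.

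The regions that CLK ranked highest relative to CYC lay on both arms of chromosomes 2 and 3. Taken among regions without a head mock peak and with both CLK lists higher, the largest difference was at 2L 15067935 to 15068258, which ranked 40 and 25 in CLK and 207.5 and 196 in CYC. Its first values were 205 and 119 in the CLK lists, against 16.0 and 13.5 in the CYC lists, a 6.38-fold difference in rank (log2 2.67 ± 0.36, SE; limma adjusted p = 0.0562). The region 2L 5285151 to 5285474 ranked 32 and 63 in CLK and 303.5 and 267.5 in CYC, with first values of 226 and 68.5 in the CLK lists, against 12.2 and 10.4 in the CYC lists. The region at 15067935 had a peak in all 4 body lists and the one at 5285151 in none.

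The next 3 ranked 36 to 119 in CLK and 163.5 to 545 in CYC. The region 3R 17700734 to 17701074 ranked 88 in both CLK lists and 523.5 and 468.5 in CYC. The region 2R 15078702 to 15079034 ranked 119 and 77 in CLK and 545 and 432.5 in CYC. At 2L 21311001 to 21311348 the ranks were 36 and 54 in CLK and 163.5 and 215 in CYC. None of these 3 had a peak in a body CLK list.

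The other 3 of this kind ended with a region near the foot of the CYC order. The region 3R 254300 to 254622 ranked 94 and 42 in CLK and 365 and 177 in CYC, and 3L 5121499 to 5121831 ranked 228 and 200 in CLK and 709 and 760.5 in CYC. At 3L 16515470 to 16515833 the ranks were 371 and 286 in CLK and 1280 and 1248 in CYC, where its first values were 2.32 and 2.42, close to the lowest value of the lists, 2.00. Adjusted p-values over the 8 regions ran from 0.0562 to 0.0938, so none passed the unpaired limma test.

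Among regions without a head mock peak, those that CYC ranked highest relative to CLK began with 3R 17430338 to 17430660, at ranks 776 and 325 in CLK and 117 and 49 in CYC. Its first values were 14.2 and 23.1 in the CLK lists, against 26.4 and 36.6 in the CYC lists, a 6.63-fold difference in rank (log2 -2.73 ± 0.60, SE; limma adjusted p = 0.0728). At 3L 2469173 to 2469495 the ranks were 646 and 562 in CLK and 160 and 111 in CYC. At X 12404962 to 12405290 they were 350 and 181 in CLK and 94 and 33 in CYC. In contrast to most of the regions favoured by CLK, these 3 had peaks in both body CYC lists.

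Further down, 3R 22974417 to 22974757 ranked 524 and 609.5 in CLK and 161 and 100 in CYC, and 2R 7822285 to 7822642 ranked 892.5 and 588 in CLK and 162 and 175 in CYC. The region 3L 7347816 to 7348138 ranked 496.5 and 741 in CLK and 132 and 174 in CYC. The region 2L 2751569 to 2751891 ranked 335 and 362 in CLK and 96 and 80 in CYC, and X 8663129 to 8663458 ranked 847.5 and 472.5 in CLK and 204 and 131 in CYC. Adjusted p-values over these 8 ran from 0.0562 to 0.0938 in limma, and again none passed the unpaired test. Regions with a mock peak are not among these 16, and some of them had larger differences in either direction.

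**Figure D3:**
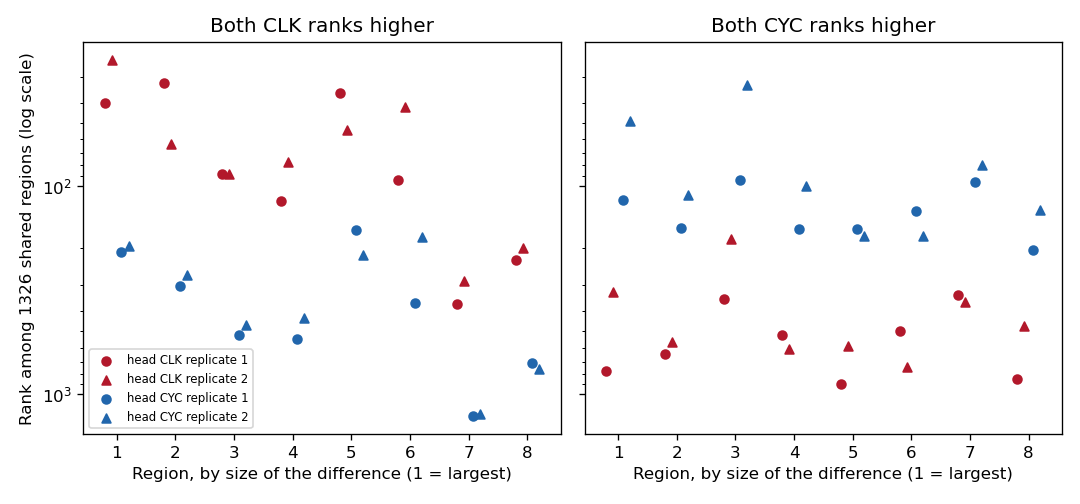
Rank (y axis, log scale, strongest at the top) in the 4 head lists of the 8 regions with the largest difference in favour of CLK (left) and the 8 in favour of CYC (right), all without a head mock peak; circles are replicate 1, triangles replicate 2, red CLK and blue CYC. The factors do not overlap at any of these 16 regions, which the choice requires; CLK ranks run from 25 to 371 on the left and from 181 to 892.5 on the right.

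A larger share of the regions favoured by CYC in heads than of those favoured by CLK overlapped a body peak. Of all 1326 regions, 30.1% overlapped a body CLK peak and 36.7% a body CYC peak. Of the 385 regions with CLK higher, 18.4% overlapped a body CLK peak (14.7 to 22.7) and 21.8% a body CYC peak (17.8 to 26.3). Of the 398 regions with CYC higher, 38.2% overlapped a body CLK peak (33.4 to 43.2) and 50.0% a body CYC peak (45.0 to 55.0). Of the 543 regions where the ranks of the factors overlap, 32.4% and 37.4% did. The body lists took no part in the choice of these regions. The median of the mean rank was alike, at 645 with CLK higher and 674 with CYC higher. Among the 332 regions with the best mean rank, 43.6% of 101 with CLK higher and 89.3% of 112 with CYC higher overlapped a body CYC peak. Among the 332 with the lowest mean rank the shares were 4.62% of 65 and 11.5% of 96, while a body CLK peak overlapped 7.69% of those with CLK higher and 6.25% of those with CYC higher. Without head mock peaks the body CYC shares were 24.7% of 158 with CLK higher and 68.6% of 169 with CYC higher. The intervals cover counting error only, and the difference was not tested over libraries.

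At regions found in heads and bodies alike, the rank difference between CLK and CYC mostly had the same direction in both. Bodies of the same strains gave 2 lists per factor, and 169 regions had a peak in all 8 lists of the tagged strains and were ranked anew within each. In heads 41 of them had CLK higher in both lists and 43 had CYC higher. Of the 41, both body CLK lists ranked higher at 26 and both body CYC lists at 1. Of the 43, both body CYC lists ranked higher at 24 and both body CLK lists at 1. Of the 85 regions whose head ranks overlapped, both body CLK lists ranked higher at 22 and both body CYC lists at 20. The mean difference in heads and that in bodies, which have no library in common, had a Spearman rho of 0.65 over the 169 regions and 0.62 over the 95 without a head mock peak. Single replicate pairs gave 0.46 and 0.46 for head replicate 1 with body replicates 1 and 2, and 0.61 and 0.65 for head replicate 2. The mean difference had the same sign in heads and bodies at 71.6% of the 169 regions. Differences of single replicate pairs had the same sign at 57.4% to 68.6%. By the second value rho was 0.30. Heads and bodies of 1 strain carry the same tagged protein, so strain and factor cannot be told apart.

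**Figure D4:**
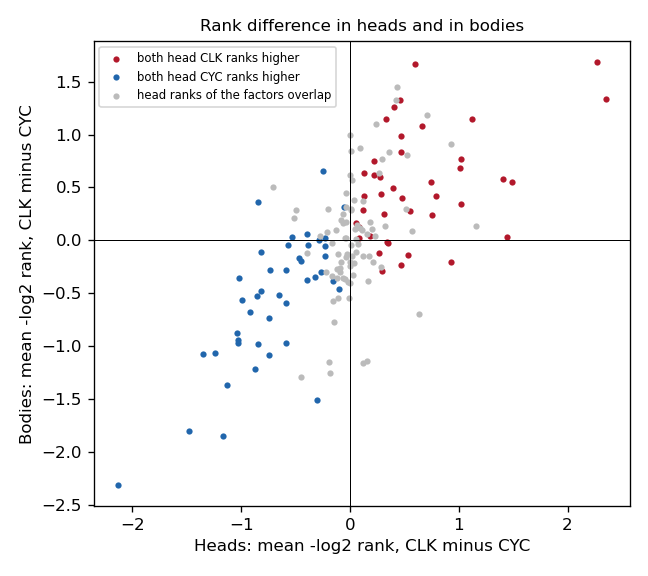
Difference between CLK and CYC in mean -log2 rank, in heads (x axis) and bodies (y axis), at 169 regions that have peaks in the 4 head and the 4 body lists; each point is a region, coloured by whether the head ranks of the factors overlap. Of the 41 red points 34 lie above 0 on the body axis, and of the 43 blue points 7 do.

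CLK and CYC midpoints lay about as close together as those of the CLK replicates in replicate 1, and farther apart in replicate 2. Over all overlapping peaks that were each other's nearest, the median absolute offset was 30 bp in replicate 1 (quartiles 13 and 63, 7539 pairs) and 34 bp in replicate 2 (15 and 71, 1701 pairs). Replicates of 1 factor were 24 bp apart in CLK (3742 pairs) and 38 bp apart in CYC (2341 pairs). Peak widths, 254 and 322 bp in CLK and 256 and 294 bp in CYC, cap the offset of overlapping peaks at 255 bp in replicate 1 and 308 bp in replicate 2. Offsets grew towards weaker peaks. For the 100 best CLK peaks the median was 10 bp in replicate 1 and 14.5 bp in replicate 2, against 12 bp between the CLK replicates and 8.5 bp between the CYC replicates for the 100 best CYC peaks. At ranks 2001 to 4609 it was 27 bp in replicate 1 and 57 bp in replicate 2, against 26 bp between the CLK replicates and 38 bp between the CYC replicates. In each of the 5 rank classes up to 4609, replicate 2 of CLK and CYC lay farther apart than the replicates of either factor. The classes are ranks in the first-named list, so ranks 2001 to 4609 are the end of CLK replicate 2. They are not the end of the longer replicate 1 lists that the same-factor pairs start from. In that class CLK replicate 2 with CYC replicate 1 also lay 49.5 bp apart. The part of list length in these offsets was not tested. The medians over all peaks mix these classes in different parts. Within 25 bp of each other were 88.9% and 73.5% of the pairs among the 100 best CLK peaks, and 48.2% and 24.9% at ranks 2001 to 4609.

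**Figure D5:**
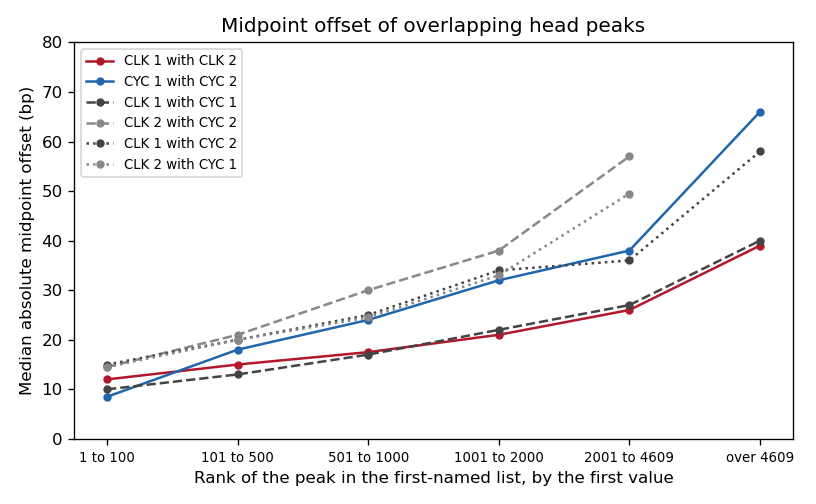
Median absolute distance between midpoints of overlapping peaks (y axis, bp) by the rank of the peak in the list named first (x axis), for the 6 pairs of head lists; solid lines are replicates of 1 factor, dashed lines CLK with CYC of the same replicate number, dotted lines CLK with CYC of different number. All 6 lines rise towards weaker peaks, and CLK 1 with CYC 1, at 10 bp to 40 bp, runs beside CLK 1 with CLK 2, at 12 bp to 39 bp.

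Signed offsets between the partners were small in the median. The median signed offset on the plus strand, CLK midpoint minus CYC midpoint, was 0 bp in replicate 1 and -4 bp in replicate 2, against 2 bp between CLK replicates 1 and 2 and -2 bp between CYC replicates 1 and 2. Across the 1326 shared regions the signed offset in replicate 1 had a rho of 0.16 with that in replicate 2, and of the 1292 regions with an offset in both, 56.6% had the same sign. With the replicate numbers crossed, rho was 0.02 and 49.9% had the same sign. Both CLK midpoints lay to the right of both CYC midpoints by at least 1 bp in 229 regions and to the left in 259. Together these were 36.8% of the 1326 regions. By at least 25 bp the numbers were 72 and 86, together 11.9% of the regions. Without a head mock peak, CLK lay to the right in 85 and to the left in 122 of 546 regions, together 37.9%. By at least 25 bp it did so in 18 and 31, together 8.97%. The 4 midpoints of a region spanned a median of 51 bp, and 45 bp in regions without a head mock peak.

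At 6 of the 8 best regions the offsets were at most 15 bp in both replicates. At 3L 7826767 to 7827089 the CLK-minus-CYC offset was 0 and -3 bp in replicates 1 and 2, and at 3L 7828200 to 7828522 it was -5 and -7 bp. On 2L it was -15 and -6 bp at 5303180 to 5303502, 0 and -13 bp at 3507238 to 3507560, and -15 and -14 bp at 5305472 to 5305794. At X 2578927 to 2579249 it was 4 and -2 bp. The CLK replicates differed by 0 to 16 bp in size at these 6 regions, and the CYC replicates by 1 to 5 bp. The other regions of the 8 had 5 and -26 bp at 2L 5301020 to 5301636, where each list has 2 peaks, and -2 and 19 bp at 2L 5303801 to 5304128. In the same order, CLK replicate 1 minus CLK replicate 2 was 45 and -18 bp there. For the CYC replicates it was 14 and 3 bp. The 16 named regions with unlike ranks ranged from small offsets, such as 3 and 1 bp at 3L 7347816 to 7348138 and -3 and -5 bp at 2L 2751569 to 2751891, to 41 and 55 bp at 3L 16515470 to 16515833 and -39 and -49 bp at 2R 7822285 to 7822642. At the region called by limma, 2R 4491744 to 4492090, the offset was 32 and 38 bp, while its CLK midpoints were 17 bp apart and its CYC midpoints 23 bp apart.

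Regions found with only 1 of the factors and without a head mock peak were absent from the 100 best peaks of the lists. This filter takes out most of the top, since mock peaks overlapped 71% to 82% of the 100 best peaks per list. With no filter, each of the 100 best peaks in both CLK lists had a CYC partner in at least 1 CYC list. A CLK partner was found in this way for 99 of the 100 best in CYC replicate 1 and 100 in CYC replicate 2. Among the 782 regions with both CLK lists, neither CYC list and no head mock peak, the median lay at 36.1% and 58.4% of the CLK lists, 0 were among the 100 best peaks of either list and 8 were among the 500 best of each. The leading one, 2R 20168280 to 20168602, ranked 286 and 101 in the full CLK lists, with first values of 58.8 and 50.9, and the nearest CYC midpoints were 5117 and 10459 bp away. The second, 2R 19503794 to 19504116, ranked 296 and 195, and the third, 3R 1089007 to 1089329, ranked 297 and 242. Regions 3R 12810611 to 12810933, 2L 3442511 to 3442833 and 3R 19612667 to 19612989 followed, at ranks 357 and 413, 669 and 348, and 839 and 294.

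The 138 regions with only CYC lay lower, at a median of 66.4% and 60.6% of the CYC lists, with 0 among the 500 best peaks of replicate 1 and 4 among those of replicate 2. The leading one, X 8412566 to 8412894, ranked 2149 and 428 in CYC with first values of 5.63 and 7.91, and the nearest CLK midpoints were 1439 and 5381 bp away. It was followed by 2R 11605329 to 11605623 at ranks 3088 and 341, X 6745 to 7219 at 1771 and 897, and X 97603 to 97897 at 2963 and 458. The last 2 of the 6, 3R 27206859 to 27207161 and 2R 12706499 to 12706879, had a CLK replicate 1 midpoint 368 and 481 bp away. A body CLK peak overlapped 15.2% of the 782 regions with only CLK (12.8 to 17.9) and 8.70% of the 138 with only CYC (4.57 to 14.7). The corresponding share of the 546 regions with all 4 lists and no head mock peak was 37.2% (33.1 to 41.4).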

How the data were processed

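Reads were mapped with Bowtie 0.12.7 to dm3, per the submitters' processing notes. The peak caller is not given in the sources used here. The authors deposited 1 list per pull-down, not pooled, with start, end, midpoint and 2 unnamed values per peak, each treated as a score of unknown scale. Each head list has 1 peak width, and no value lies below 2.00. Lists hold no read counts, so depth is unknown.

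From these lists, an overlap of 1 bp or more counted as shared, and peaks of the 4 head lists were chained into regions. A region's best peak per list gave its rank. Regions with a peak in all 4 lists were ranked within each list, and -log2(rank / number of regions) was tested with limma 3.58.1 (trend, no block) in R 4.3.3, Benjamini-Hochberg adjusted. Counts of peaks were compared by an exact permutation test on log2(peaks + 1), and shares have Clopper-Pearson 95% intervals. Python 3.11.15 and scipy 1.17.1 were used, and the limma step was tested on simulated ranks. Named regions were the 8 best by mean rank, the 8 with the largest difference in each direction among regions without a head mock peak, and the 6 best with each factor alone and no head mock peak. The region called by limma was chosen after its value was seen. The comparison, lists and rules were chosen with earlier results of these data known, including which regions lead the lists by the first value. The 6 head inputs have no list, and sequences were not analysed here.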

Additional observations from a re-analysis of the deposited data

How the results depend on the processing

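Ranking by the second value gave 245 regions with CLK higher and 222 with CYC higher, 0 limma calls (69 regions with an unadjusted p below 0.05) and rho of 0.69 and 0.42 in replicates 1 and 2. An overlap of at least 150 bp gave 3 calls and median offsets of 25 and 31 bp. With both values at 4 or more, all 4 lists had a peak in 357 regions and only CYC in 10, CLK ranked higher in 116 and CYC in 120, limma called 35, partner shares were 38.3% for CLK replicate 1 and 60.9% for CYC replicate 2, offsets were 20 and 20 bp and rho in replicate 1 was 0.76. At equal length limma called 0 (280 with an unadjusted p below 0.05), the replicate 1 offset was 20 bp and rho was 0.66 and 0.67. Without peaks that overlap a mock peak, 552 regions had all 4 lists and 155 only CYC, CLK ranked higher in 169 and CYC in 180, limma called 95, the CLK replicate 1 partner share was 33.1%, offsets were 24 and 31 bp and rho was 0.68 and 0.65. The 5 main arms alone gave 3 calls, and normal scores of the ranks 27. CLK replicate 1 against CYC replicate 2 and the reverse pairing gave partner shares of 19.6% and 57.4% for CLK replicates 1 and 2 and 23.2% for CYC replicate 1, an offset of 38 bp and rho of 0.60 for CLK replicate 1. Leaving out each library in turn, the difference in peak number ran from -0.73 to 0.84, regions with all lists from 1346 to 2485, only CLK from 1228 to 5171, only CYC from 319 to 3676, CLK higher from 507 to 995, CYC higher from 509 to 963 and limma calls from 0 to 62; the last fit assumes that the lone list of a factor varies like the pair of the other. With the replicate block limma called 341 regions (168 with CLK higher, 173 with CYC higher), the 16 named regions with unlike ranks had adjusted p-values from 0.00394 to 0.00621, and the difference in peak number stayed at 0.06 (exact sign-flip p = 1.00). The labels do not say that a number marks a shared batch, and the deviations of CLK and CYC replicate 1 from their group means correlated at 0.48 over the 1326 regions. Removing only the peaks of mock replicate 2, an alternative chosen after seeing the data, left 1 call. Beyond the constructions themselves (fewer peaks, fewer lists), the cause of these changes was not tested. Depth is unknown, so regions missing from a list may lie below its calling threshold.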
